A study of Coprinopsis cinerea with 29 samples.

Results

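The comparison between lamellae and cap of young fruiting bodies of the mushroom Coprinopsis cinerea rested on 6 of the 29 RNA sequencing libraries of a developmental series, 3 of lamellae (YFB_L) and 3 of cap (YFB_C), chosen by their titles. A further 4 libraries of the stage 2 primordium (P2), the next earlier stage, served as the level from which either tissue may have moved. All groups were strain #326 (A43mut B43mut pab 1-1), a homokaryon whose mutated A and B mating-type factors let it fruit without a partner. Cultures had 5 dark days at 37 °C, followed by 1 week at 25 °C with 12 h of light and 12 h of darkness a day, so no group differed in strain or treatment. The series calls its replicates biological, but the labels do not name the cultures or fruiting bodies they came from. The p-values measure the spread between libraries within groups, shared over all groups of a fit and not over lamellae and cap alone. The other 6 groups were vegetative mycelium, hyphal knots, stage 1 primordia (P1), the young stipe (YFB_S), and the mature cap with lamellae (FB_CL) and stipe (FB_S).

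The cap, or pileus, is the dome at the top of the fruiting body, and the lamellae, or gills, are the thin plates that hang beneath it. The gill surface carries the hymenium, the cell layer in which basidia form. In basidia the paired nuclei fuse, pass through meiosis and give rise to the spores, whereas cap tissue covers the gills and later expands to expose them. Both tissues take shape inside the primordium. The P2 libraries were made from whole stage 2 primordia as labelled, with no separation into tissues, so a departure from P2 may be one of stage or of tissue and these cannot be told apart. In RNA from bulk tissue, fewer cells of a type and less RNA per cell cannot be told apart either.

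Polyadenylated RNA was counted as reads on 14242 gene models, of which 11990 had enough reads to be tested. No names accompany the identifiers in the files, and none matched the reference table, so the labelled tissues could not be checked against marker genes and gene models are named here by number alone. Levels are CPM, a gene model's reads relative to its library's total, scaled by TMM, a method that assumes that most genes do not differ between libraries. Gene models were called where edgeR's quasi-likelihood test gave an adjusted p under 0.05 and the change reached 2-fold, in 1 fit to all 29 libraries unless another is named. The lamellae libraries held 32199674, 18716245 and 23125528 reads (replicates 1 to 3), the cap libraries 17236167, 15856824 and 28417907, and the P2 libraries from 16452597 to 23501482. All lamellae and cap libraries came from 1 flow cell, which P2 replicates 1 to 3 shared and replicate 4 did not.

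Lamellae replicate 1 and cap replicate 3 stood apart from their groups. Across gene models, which are not independent replicates, log2 CPM of lamellae replicates 2 and 3 correlated at r = 0.991, while replicate 1 reached 0.885 and 0.867 with them. Cap replicates 1 and 2 correlated at 0.988, and replicate 3 reached 0.926 and 0.928. Lamellae replicate 1 lay at least 4-fold above both other libraries of its group in 866 gene models and at least 4-fold below both in 176. For cap replicate 3 these counts were 420 and 442, against 3 to 24 in either direction for each of the other 4 lamellae and cap libraries. Both were also the most deeply sequenced library of their group.

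The 2 libraries deviated in part at the same gene models. At 173 gene models both lay at least 4-fold above the rest of their own tissue, at 53 both lay below, and at 7 they lay on opposite sides. No other pair of a lamellae and a cap library shared such a deviation in the same direction. Each such pair held a library with only 3 to 24 such gene models, so little could be shared. Among the 173, the median log2 CPM was 7.90 in lamellae replicate 1 against 2.84 in replicates 2 and 3, and 6.80 in cap replicate 3 against 2.94 in replicates 1 and 2. The same gene models had medians of 6.24 in the mature cap with lamellae, 4.32 in the mature stipe, 3.13 in P2 and 2.99 in the young stipe. The mature cap with lamellae lay above both sets of remaining libraries in 122 of the 173, and below both in 46 of the 53. Over all tested gene models it lay above both in 4383 of 11990 and below both in 4531. The correlation with the 3 libraries of the mature cap with lamellae was 0.732 to 0.758 for lamellae replicate 1, against 0.674 to 0.710 for replicates 2 and 3. It was 0.796 to 0.809 for cap replicate 3, against 0.755 to 0.769 for replicates 1 and 2. The mature stipe showed the same order, so the closeness was not particular to the mature cap with lamellae. Its correlation was 0.712 to 0.720 with lamellae replicate 1, against 0.678 to 0.709 with replicates 2 and 3. With cap replicate 3 it was 0.814 to 0.827, against 0.780 to 0.797 with replicates 1 and 2. The part of stage or dissection in these deviations was not tested, and counts and named gene models below are given with all libraries and, for the main values, also without the 2.

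**Figure D1:**
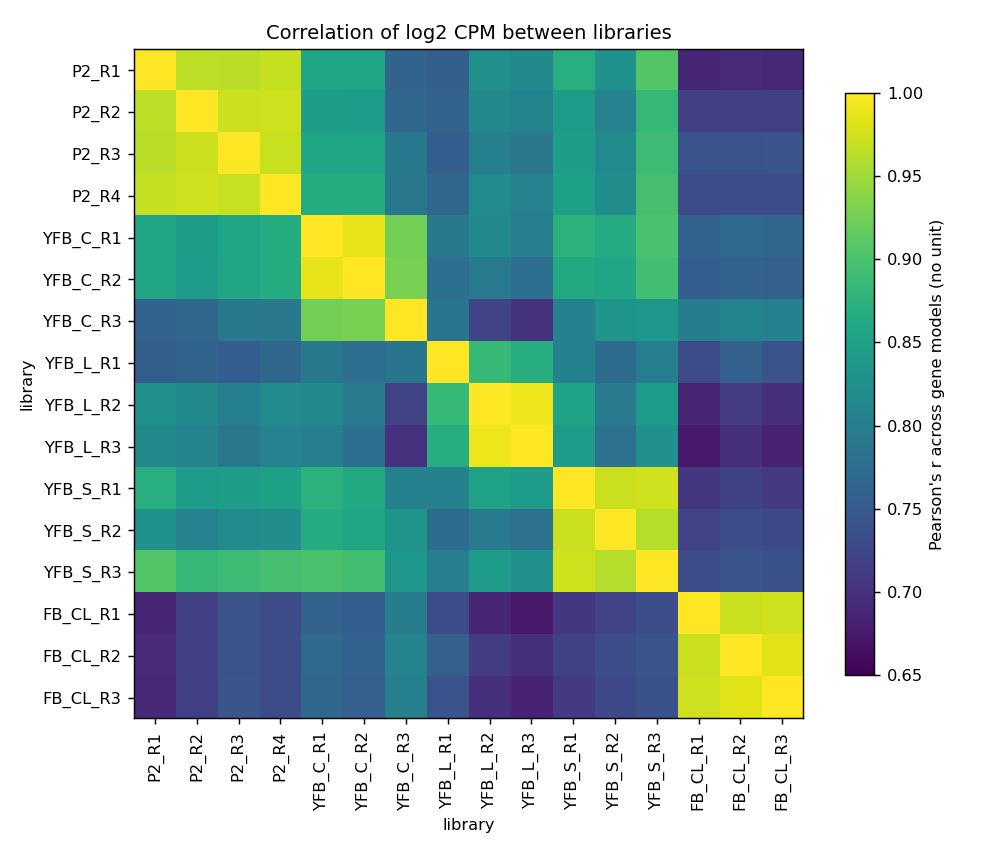
Pearson's r of log2 CPM (prior count 2) between the 16 libraries of P2, young cap (YFB_C), young lamellae (YFB_L), young stipe (YFB_S) and mature cap with lamellae (FB_CL), computed across the tested gene models and shown as colour, with the libraries on both axes. Lamellae replicate 1 reaches at most 0.885 with its group and cap replicate 3 at most 0.928, and both are closer to the mature cap with lamellae than the other libraries of their tissue. The same holds for the mature stipe, which is not shown.

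Between lamellae and cap, 5229 gene models were called, 43.6% of those tested, with 2841 higher (23.7%) and 2388 lower (19.9%) in lamellae. Without lamellae replicate 1 and cap replicate 3, 5052 of 12080 were called (41.8%), 2585 higher (21.4%) and 2467 lower (20.4%). Both fits called 4337 gene models in the same direction, 82.9% of the calls with all libraries and 85.8% of those without the 2. Of these, 2315 were higher and 2022 lower in lamellae. A further 875 were called only with all libraries, 698 only without the 2, and 17 were called in opposite directions. Of the 17, 16 were higher in lamellae with all libraries and lower without the 2, and 1 went the other way.

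The balance of higher and lower calls rested on the scaling and on single libraries. The excess of higher over lower calls was 453, but -201 without lamellae replicate 1 and -7 in a fit to the 6 libraries alone. TMM factors were 0.887, 0.809 and 0.564 in cap and 0.872, 1.32 and 1.36 in lamellae, and the 10 most abundant gene models took 14.3%, 15.2% and 11.6% of the reads in cap and 9.03%, 4.38% and 4.51% in lamellae. With library size alone in place of TMM, 4616 were called higher and 1450 lower in lamellae, and the median log2 difference of all tested gene models was 0.72 instead of 0.08. The same split was 4328 higher and 1500 lower when the 2 libraries were left out.

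The differences were large. The median log2 difference of the calls was 2.10 for those higher and -2.06 for those lower in lamellae, and 1.98 and -2.14 without the 2 libraries. Gene models with no reads in a tissue were placed at the bound given by 3 reads over its libraries. A difference of at least 4-fold was reached by 1501 gene models higher and 1250 lower in lamellae, and by 1276 and 1358 without the 2. At 16-fold the counts were 274 higher and 419 lower, and 170 and 475 without the 2. At 64-fold they were 12 and 132, and 2 and 156 without the 2. More gene models were lower than higher in lamellae at 64-fold also under library size alone, 84 against 29 among those with reads in both tissues, but not at 16-fold, where 284 were lower and 511 higher. Of the tested gene models, 38 had no read in any lamellae library, of which 19 were called and 8 of those averaged at least 1 CPM in cap. In cap 34 had no read, of which 9 were called, with 1 averaging at least 1 CPM in lamellae.

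Gene models called in both fits made up much of either transcriptome. Those higher in lamellae took 21.8%, 26.6% and 28.9% of the reads of the lamellae libraries, and 3.46%, 2.92% and 2.10% of those of the cap libraries. Those lower in lamellae took 52.6%, 53.4% and 53.2% of the cap reads, and 12.6%, 11.6% and 10.4% of the lamellae reads. These shares follow from how the sets were chosen, and groups with no part in the choice tend to lie between them. In P2 the first set took 12.4% to 15.7% of the reads and the second 26.1% to 29.0%. The young stipe gave 6.83% to 9.11% and 28.5% to 31.0%, and the mature cap with lamellae 6.27% to 6.67% and 36.5% to 38.4%. All 3 groups thus lay between lamellae and cap for both sets. The sets differed little in length, with medians of 1301 and 1276 bases against 1317 over all tested gene models.

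Gene models high in lamellae had lower medians in every other group listed here. Their median log2 CPM was 4.66 in lamellae, 3.76 in P2, 2.96 in the young stipe, 3.20 in the mature cap with lamellae, 2.55 in the mature stipe and 2.41 in cap. The level in the young stipe was nearer to that in cap than to that in lamellae for 66.8% of them, against 54.0% of all tested gene models. Under library size alone these shares were 63.9% and 48.9%. Gene models low in lamellae had medians of 6.19 in cap, 5.07 in the mature cap with lamellae, 5.03 in the mature stipe, 4.92 in P2, 4.89 in the young stipe and 3.45 in lamellae. The young stipe was nearer to cap for 49.6% of these, and nearer to lamellae for 50.4%, and under library size alone for 53.8% and 46.2%, so here the direction turned with the scaling. The mature cap with lamellae, which holds both tissues, was nearer to cap for 58.7% of the first set and 54.6% of the second, against 53.9% of all tested. Under library size alone its shares were 77.5% and 33.7%, against 64.2% of all tested, so the direction for the second set turned with the scaling.

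The pair of libraries set aside gave a view of calls to which they had not contributed. Of 2575 gene models called higher in lamellae without them, 2390 (92.8%) were also higher in lamellae replicate 1 than in cap replicate 3. The median difference between the 2 libraries was 1.96 on the log2 scale, against 1.99 in the fit to the others. Of 2460 called lower, 2148 (87.3%) were lower in lamellae replicate 1, with a median of -1.69 against -2.14 in the fit. A difference of at least 2-fold in the opposite direction occurred in 33 of the first and 124 of the second. Among 6954 gene models not called, 65.4% had the sign of the fitted difference and 52.1% were higher in lamellae replicate 1. With 1 library a tissue this has no test.

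**Figure D2:**
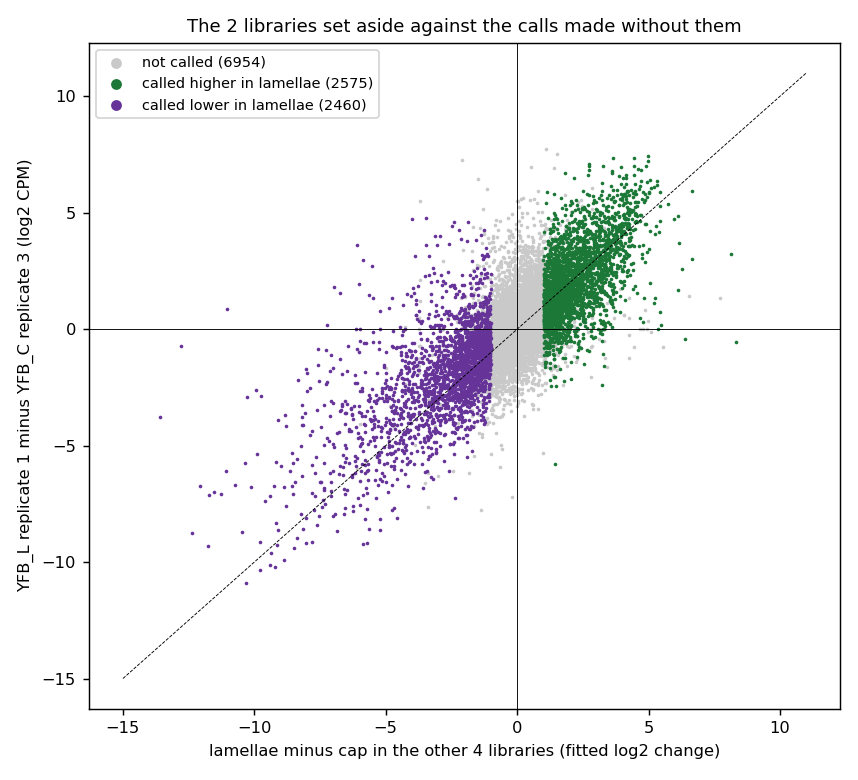
Log2 CPM of lamellae replicate 1 minus cap replicate 3 (vertical) against the fitted log2 change between the other 4 lamellae and cap libraries (horizontal), 1 point a gene model, green called higher and purple called lower in lamellae without the 2 libraries, with a dashed line of equality. Of the green points 92.8% lie above 0 and of the purple points 87.3% below it.

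The gene models that differed most in both fits were followed through the libraries. Gene model 440826 was at 87.2, 22.4 and 13.1 CPM in lamellae replicates 1 to 3, at 0.131, 0.546 and 2.00 in cap and at 0.0575 to 0.132 in P2. All lamellae libraries lay above every cap, P2 and young stipe library, and replicate 1 was the highest. The log2 difference from cap was 5.49 ± 0.83 (SE; edgeR adjusted p = 8.3e-06), and 5.74 without the 2 libraries (6.58e-06). It was 4.29 without lamellae replicate 1 and 6.94 without cap replicate 3. Against P2, lamellae rose by 8.83 ± 0.88 (edgeR adjusted p = 3.33e-08), and cap rose by 3.34 ± 0.87 (edgeR adjusted p = 0.00244), the latter falling to 1.89 (0.0891) without cap replicate 3 and lamellae replicate 1.

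Gene model 391326, of 342 bases, stood at 14268, 10767 and 11586 CPM in lamellae and at 277, 237 and 240 in cap, so the groups were far apart and each was tight. This one gene model took 1.24%, 1.42% and 1.58% of the reads of the lamellae libraries. The difference was 5.60 ± 1.19 (SE; edgeR adjusted p = 0.00039), and 5.44 without the 2 libraries (0.00369). The SE draws on the spread in all groups of the fit, not only in lamellae and cap. P2 replicates 1 to 4 held 37.4, 59.6, 14.2 and 126 CPM, from which lamellae rose by 7.68 ± 1.15 on the log2 scale (edgeR adjusted p = 8.63e-06). The cap difference from P2 was 2.08 ± 0.92 (edgeR adjusted p = 0.0597). In the mature cap with lamellae the level was 4.66 to 9.11 CPM, below every P2 library, and in the young stipe 418, 7.78 and 203.

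Among gene models lower in lamellae, 496437 was at 1816 and 1828 CPM in cap replicates 1 and 2 but at 5.62 in replicate 3, and at 0.320, 0.122 and 0.159 in lamellae. Cap replicate 3 thus lay below the 200 to 477 CPM of P2 and also below the 9.29 to 10.0 of the mature cap with lamellae. The difference was -12.52 ± 1.54 (SE; edgeR adjusted p = 4.84e-07), and -13.59 without the 2 libraries (2.62e-08). The cap difference from P2 was 1.98 ± 0.88 (edgeR adjusted p = 0.0584), and 2.57 ± 0.60 without the 2 libraries (0.00127). It was 2.57 (0.00169) without cap replicate 3 alone and 1.98 (0.0571) without lamellae replicate 1 alone, so the call of a rise in cap depended on cap replicate 3. Gene model 544085 had no read in lamellae and 20.8, 18.7 and 12.9 CPM in cap, at least 491-fold more (370-fold without the 2 libraries; edgeR adjusted p = 8.76e-08 and 8.83e-07). P2 held 0.838 to 1.81 CPM, at least 36.8-fold above lamellae (edgeR adjusted p = 2.43e-05), and cap lay 3.72 ± 0.62 above P2 on the log2 scale (edgeR adjusted p = 3.43e-05). Its 2 tissues thus left the primordium level on opposite sides.

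Other large differences rested on 1 library. Gene model 462778 was at 1610 CPM in lamellae replicate 1 but at 7.18 and 1.87 in replicates 2 and 3, with 1.90, 2.34 and 7.43 in cap. The difference of 7.11 ± 1.50 (SE; edgeR adjusted p = 0.000364) fell to 1.09 (0.253) without the 2 libraries and to 0.21 without lamellae replicate 1 alone. Gene model 480823 was at 131, 0.892 and 0.380 CPM in lamellae, at 0.156 to 0.624 in cap and at 49.0 to 113 in P2. Of the lamellae and cap libraries, only lamellae replicate 1 was near the P2 level. The difference was 6.92 ± 1.42 (SE; edgeR adjusted p = 0.00026) and 1.52 (0.189) without the 2 libraries, and 0.79 without lamellae replicate 1. The difference from P2 moved with the same library. In lamellae it was -0.85 ± 0.96 (edgeR adjusted p = 0.489) with all libraries, -6.98 ± 0.70 (5.9e-08) without the 2 and -6.98 (1.02e-07) without lamellae replicate 1 alone, and cap fell by 7.77 ± 1.44 (edgeR adjusted p = 9.12e-05) with all libraries and fell by 8.51 without the 2.

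Cap replicate 3 carried the reverse cases. Gene model 465894 was at 3.99, 6.94 and 221 CPM in cap replicates 1 to 3 and at 1.42, 6.37 and 3.30 in lamellae. Its difference of -4.39 ± 1.30 (SE; edgeR adjusted p = 0.00647) was -0.18 (0.913) without the 2 libraries and -0.57 without cap replicate 3. The mature cap with lamellae was at 52.1 to 55.2 CPM and the mature stipe at 77.3 to 235. Hyphal knots (replicates 2 to 4) were at 897, 846 and 40.7 CPM, so high levels were not particular to mature tissue. Gene model 361222 was at 3.21, 5.15 and 104 CPM in cap and at 0.392, 1.87 and 1.36 in lamellae. Its difference of -4.96 ± 1.28 (SE; edgeR adjusted p = 0.00232) was -1.37 (0.353) without the 2 libraries and -1.79 without cap replicate 3. The mature cap with lamellae held 20.7 to 34.4 CPM of it and the mature stipe 31.8 to 105, while hyphal knots held 454, 340 and 18.5. Cap replicates 1 and 2 overlapped with the lamellae libraries for 465894 and lay above all 3 of them for 361222.

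**Figure D3:**
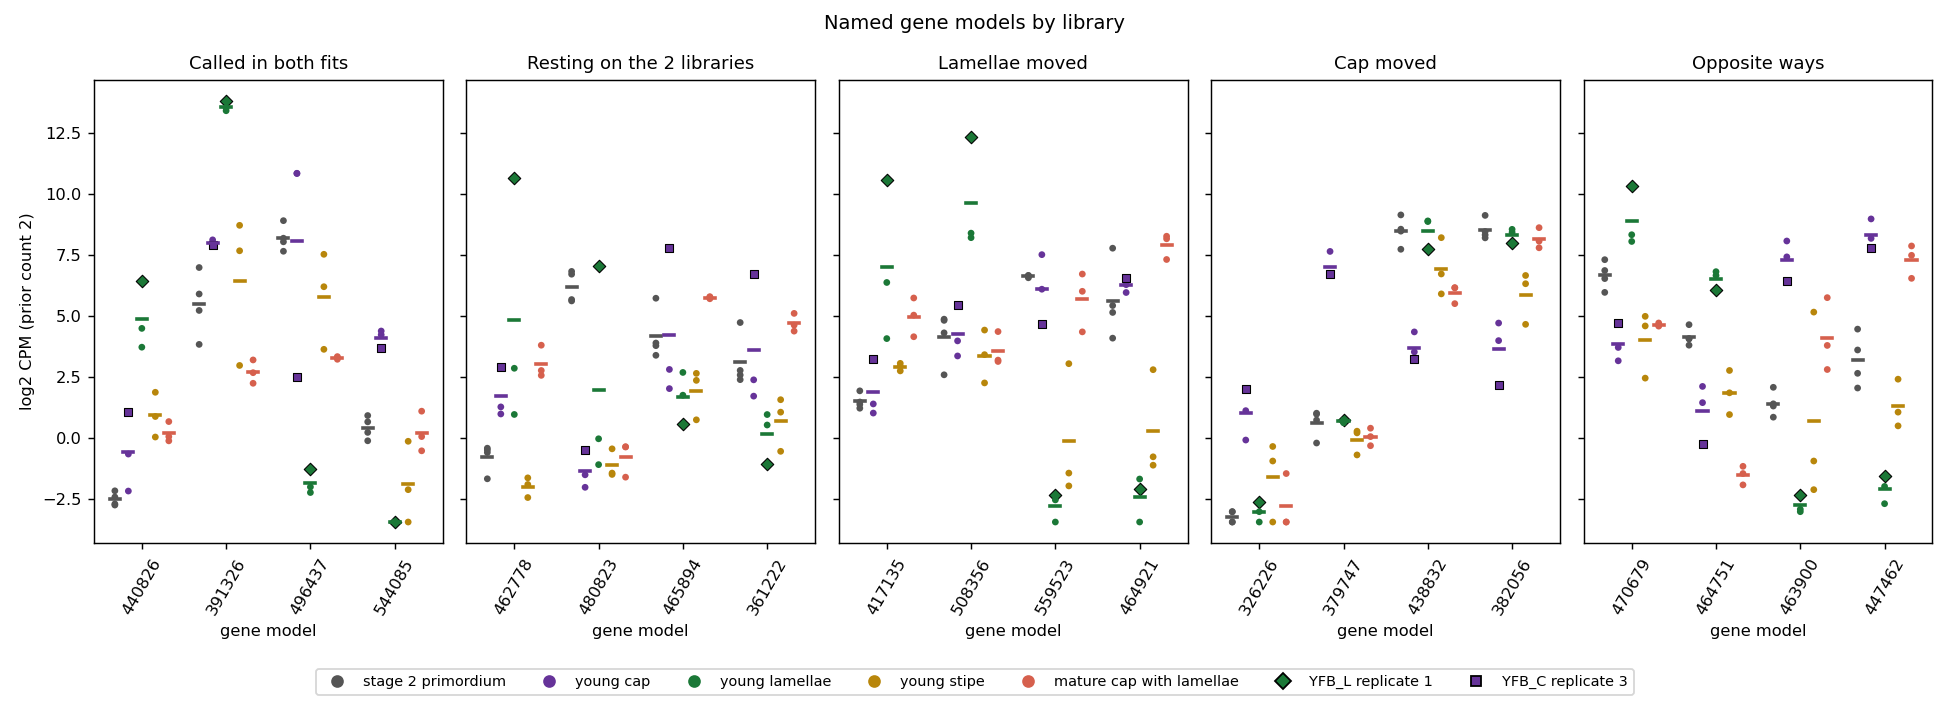
Log2 CPM (prior count 2) of the 20 named gene models in every library of P2, young cap, young lamellae, young stipe and mature cap with lamellae, in 5 panels by the rule that chose them. Points are libraries, bars are group means, the diamond is lamellae replicate 1 and the square cap replicate 3, on which the differences in the second panel rest, as for 462778 at 1610 CPM in lamellae replicate 1.

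Which tissue had left the primordium level was read from the calls of lamellae and of cap against P2. Lamellae differed from P2 in 4138 gene models (34.5% of those tested), 2219 higher (18.5%) and 1919 lower (16%). Cap differed from P2 in 5119 (42.7%), 2637 higher (22%) and 2482 lower (20.7%). When the 2 libraries were left out, the counts were 4295 (35.6%), 1975 higher (16.3%) and 2320 lower (19.2%), for lamellae and 4438 (36.7%), 2180 higher (18%) and 2258 lower (18.7%), for cap. The balance of rises and falls from P2 rested on the scaling. Library size alone gave 1608 rises and 2407 falls in lamellae and 1019 rises and 5223 falls in cap, with the median of all tested gene models at -0.14 and -0.89 instead of 0.11 and 0.00. The comparisons share the P2 libraries, and the test between lamellae and cap is itself the test of whether their departures differ. A tissue that was not called against P2 is not shown to have stayed at its level.

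Of the 5229 gene models that differed between lamellae and cap, 2083 (39.8%) were called against P2 in cap alone and 1379 (26.4%) in lamellae alone. Both tissues were called in opposite directions in 548 (10.5%) and in the same direction to unequal extent in 507 (9.70%). Neither was called in 712 (13.6%). Without lamellae replicate 1 and cap replicate 3, cap alone fell to 1720 (34.0%) and lamellae alone rose to 1603 (31.7%), with 570 (11.3%) in opposite directions, 398 (7.88%) in the same direction and 761 (15.1%) in neither.

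The excess of cap alone over lamellae alone moved with cap replicate 3. It was 704 gene models with all libraries, 117 without the 2, and -35 without cap replicate 3 alone, where 1577 were called in cap alone and 1612 in lamellae alone. Without lamellae replicate 1 alone it was 854. It also depended on the scaling and on the threshold. With library size alone it was 1666, and 960 without the 2 libraries as well, while at a 4-fold threshold it was 6, with 884 in cap alone and 878 in lamellae alone. With P1 in place of P2 as the reference, 1987 were called in cap alone and 1427 in lamellae alone.

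The size of the departures showed the same dependence. Over the 5229 called gene models, the median distance from P2 was 1.39 in cap and 1.01 in lamellae on the log2 scale, and cap was the farther in 2963 (56.7%). Over all tested gene models cap was the farther in 55.4%. The largest called departures were more numerous in lamellae. At 16-fold, 263 gene models rose and 335 fell in lamellae, against 192 and 224 in cap. At 64-fold these counts were 88 and 107 against 38 and 47. At 4-fold cap had more, 1083 and 1127 against 994 and 1082. Leaving out the 2 libraries gave 152 and 461 at 16-fold in lamellae, against 128 and 219 in cap. These are fitted changes under TMM, not bounded where reads were 0. Without the 2 libraries the medians were 1.19 and 1.10, and cap was the farther in 50.2% of the called and 50.8% of all tested gene models. Within each direction the shares moved with the scaling, each taken over the gene models called in that fit. With library size alone, cap was the farther in 73.7% of the gene models called higher in lamellae and in 36.7% of those called lower, against 54.7% and 59.0% with TMM. With the 2 libraries left out as well, these shares were 67.9% and 34.1%, against 51.3% and 49.0% with TMM. Cap was thus the farther for most gene models called higher in each of these fits. For most of those called lower it was the farther only with TMM and all libraries. Cap replicate 3 correlated with the P2 libraries at 0.762 to 0.792 and cap replicate 1 at 0.845 to 0.867. Lamellae replicate 1 did so at 0.754 to 0.766 and replicate 2 at 0.801 to 0.826, so the library set aside in each tissue was also the farther from P2. Between tissues, lamellae replicates 2 and 3 correlated with P2 at 0.788 to 0.826 and cap replicates 1 and 2 at 0.843 to 0.867. By this measure those lamellae libraries were the farther from P2. The ranges of lamellae replicate 1 and cap replicate 3 overlapped.

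**Figure D4:**
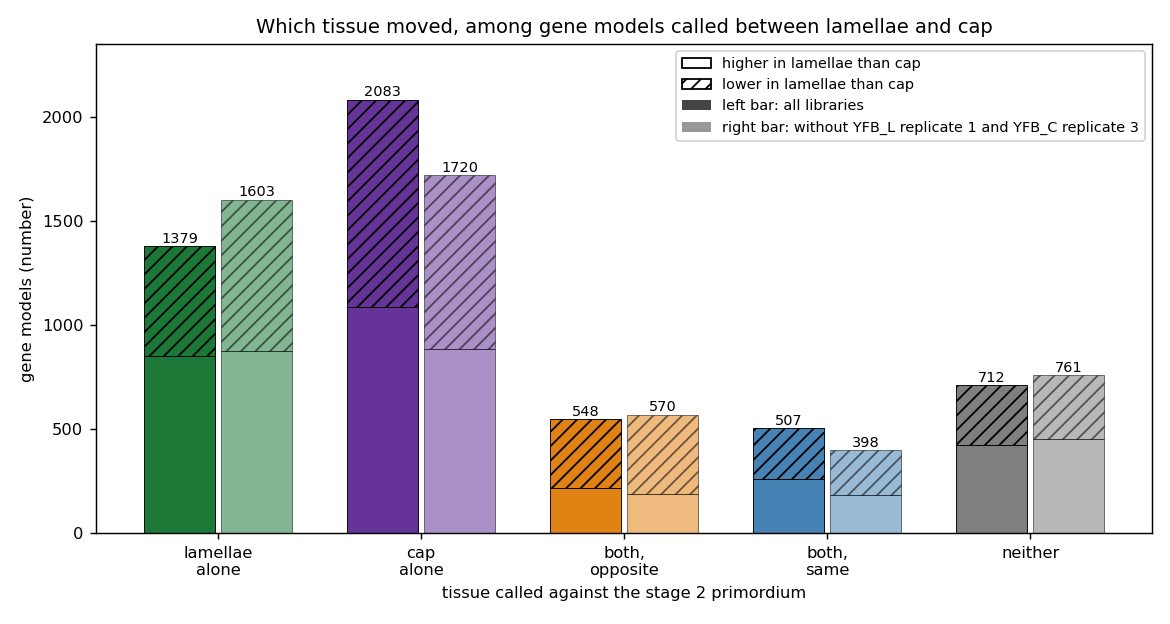
Number of gene models called between lamellae and cap (vertical, from 0) by which tissue was called against P2 (horizontal), the left bar with all libraries and the right, paler bar without lamellae replicate 1 and cap replicate 3, hatched where lower in lamellae. Cap alone falls from 2083 to 1720 and lamellae alone rises from 1379 to 1603.

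Movement occurred in both directions in either tissue. Of the 1379 in lamellae alone, 853 had risen in lamellae, with a median log2 change from P2 of 2.22, and 526 had fallen, with a median of -2.25. The cap medians of these sets were -0.12 and 0.07. Of the 2083 in cap alone, 995 had risen in cap, with a median of 1.87, and 1088 had fallen, with a median of -1.91, and the lamellae medians were -0.04 and 0.10. Rises and falls numbered 877 and 726 for lamellae alone, and 833 and 887 for cap alone, when the 2 libraries were left out.

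Where both tissues had moved in opposite directions, lamellae had fallen and cap had risen in 331 gene models, and lamellae had risen and cap had fallen in 217. These counts were 383 and 187 in the fit without the 2 libraries. Where both had risen, lamellae had gone the farther in 169 gene models and cap in 121. Where both had fallen, lamellae had gone the farther in 126 and cap in 91. In the fit without the 2 libraries these 4 counts were 113, 81, 134 and 70. Of the 4337 gene models called between lamellae and cap in both fits, 3296 also kept their class. They were 1355 in cap alone, 1001 in lamellae alone, 382 in opposite directions, 264 in the same direction and 294 in neither. With all libraries, 1784 of the 4337 were in cap alone and 1133 in lamellae alone, so more left cap alone. Direct exchanges were few, 18 from lamellae alone to cap alone and 52 the other way, and the other changes involved the remaining classes. The 2 fits share 27 libraries, so they are not independent.

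**Figure D5:**
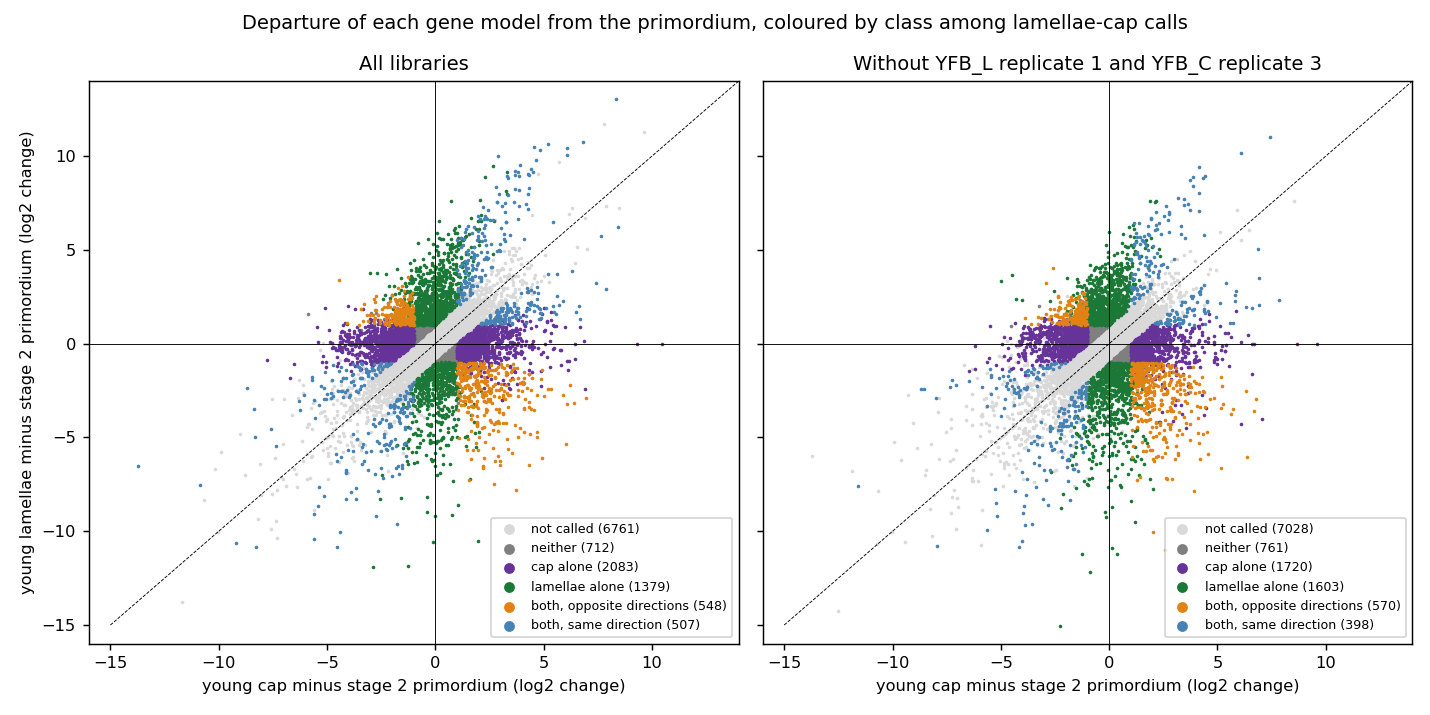
Fitted log2 change from P2 in young lamellae (vertical) against that in young cap (horizontal), 1 point a gene model, coloured by class among the lamellae and cap calls, with all libraries on the left and without the 2 libraries on the right. Points along the horizontal axis (purple, 2083 and 1720) are called in cap alone and points along the vertical axis (green, 1379 and 1603) in lamellae alone.

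Gene models that moved in lamellae while cap remained within 2-fold of P2 in both fits included 417135, at 1520, 82.7 and 16.8 CPM in lamellae, 2.55, 1.95 and 9.24 in cap and 2.25 to 3.74 in P2. All lamellae libraries were above all cap and P2 libraries, but they spanned a wide range. The lamellae rise was 7.59 ± 0.95 in log2 units (SE; edgeR adjusted p = 7.88e-07), or 4.14 without the 2 libraries (9.32e-08) and without lamellae replicate 1 alone. The cap difference was 0.72 ± 0.79 (edgeR adjusted p = 0.456). Gene model 508356 followed the same pattern, at 5096, 295 and 335 CPM in lamellae, 15.7, 10.2 and 43.0 in cap and 5.95 to 29.1 in P2. The lamellae rise was 6.52 ± 0.89 (SE; edgeR adjusted p = 2.63e-06), and 3.92 without lamellae replicate 1 (5.67e-06 without the 2 libraries). The level in the mature cap with lamellae was 8.72 to 20.5 CPM, within the range of P2. Vegetative mycelium held 182 to 214 CPM of 508356 and hyphal knots 23.0 to 84.3, so levels above P2 were not confined to lamellae.

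The largest named falls in lamellae left few reads. Gene model 559523 was at 0.107, 0.0811 and 0.00 CPM in lamellae, 68.3, 182 and 25.7 in cap and 94.5 to 101 in P2. Cap libraries lay on either side of P2, with a difference of -0.10 ± 0.79 (edgeR adjusted p = 0.926), whereas lamellae fell by 10.55 ± 1.39 (SE; edgeR adjusted p = 1.7e-06). Without the 2 libraries lamellae held 2 reads, and P2 was 2764-fold higher (exact Poisson 95% interval 765 to 22822). Gene model 464921 was at 0.142, 0.00 and 0.222 CPM in lamellae, 62.2, 77.7 and 93.9 in cap, and 17.0, 42.9, 219 and 35.3 in P2. Lamellae fell by 9.20 ± 1.39 (SE; edgeR adjusted p = 1.01e-05), and by 7.89 without P2 replicate 3, the highest P2 library. It was at 159 to 307 CPM in the mature cap with lamellae and at 0.373 to 6.89 in the young stipe.

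Among rises in cap, 379747 was at 103, 199 and 104 CPM in cap and 1.60, 1.58 and 1.46 in lamellae. P2 held 0.781 to 1.94 CPM, and the lamellae libraries lay within that range. The cap rise from P2 was 6.45 ± 0.37 in log2 units (SE; edgeR adjusted p = 3.88e-11), while the lamellae difference was 0.00 ± 0.33 (edgeR adjusted p = 0.992). It differed between lamellae and cap by -6.45 ± 0.42 (edgeR adjusted p = 1.03e-10), and by -6.63 without the 2 libraries. No library of P1, the young stipe, the mature cap with lamellae or the mature stipe exceeded 2.12 CPM, so among these tissues the high level was in the young cap. Gene model 326226, of 207 bases, was at 2.09, 0.858 and 3.93 CPM in cap but had 3 reads in all lamellae libraries and 2 in P2. Cap was 139-fold above P2 (exact Poisson 95% interval 38.4 to 1144) and 64.5-fold above lamellae (22.1 to 313), at edgeR adjusted p of 1.92e-06 and 1.87e-05. They were 89.1-fold and 83.0-fold without the 2 libraries.

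Falls called in cap and not in lamellae included 438832, which was at 20.3, 11.5 and 9.30 CPM in cap, 213, 465 and 474 in lamellae and 212 to 562 in P2. Cap fell by 4.78 ± 0.61 (SE; edgeR adjusted p = 9.81e-07) and the lamellae difference was 0.03 ± 0.49 (edgeR adjusted p = 0.965). When the 2 libraries were left out, these values were -4.56 and 0.32. The young stipe, at 59.8 to 295 CPM, lay above all cap libraries, and its highest library was within the ranges of lamellae and P2. Gene model 382056 was at 26.1, 15.8 and 4.49 CPM in cap, 252, 343 and 373 in lamellae and 293 to 554 in P2. Cap fell by 4.61 ± 0.52 (SE; edgeR adjusted p = 1.87e-07), by 4.18 without the 2 libraries and by 5.23 without cap replicate 1. Lamellae differed by -0.23 ± 0.43 (edgeR adjusted p = 0.684). The mature stipe was also low, at 5.79 to 11.1 CPM, while the mature cap with lamellae held 221 to 391.

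Some gene models went up in one tissue and down in the other. Gene model 470679 was at 1270, 320 and 265 CPM in lamellae, 13.0, 8.89 and 26.5 in cap and 62.4 to 158 in P2, with no overlap between the 3 groups. Lamellae rose by 2.53 ± 0.56 (SE; edgeR adjusted p = 0.000687), and by 1.45 without the 2 libraries (0.0193), while cap fell by 2.73 ± 0.61 (edgeR adjusted p = 0.000623). Lamellae exceeded cap by 5.26 on the log2 scale, and by 4.18 without lamellae replicate 1. Gene model 464751 was at 66.8, 101 and 112 CPM in lamellae, 4.25, 2.65 and 0.749 in cap and 13.9 to 24.9 in P2. Lamellae rose by 2.37 ± 0.45 (SE; edgeR adjusted p = 0.000149) and cap fell by 2.82 ± 0.51 (edgeR adjusted p = 6.95e-05), or by 3.43 without cap replicate 1. Here lamellae replicate 1 was the lowest of its group, and the mature cap with lamellae held only 0.174 to 0.358 CPM.

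In the opposite direction, 463900 was at 0.107, 0.0406 and 0.0317 CPM in lamellae, 171, 268 and 85.8 in cap and 1.72 to 4.15 in P2. Cap rose by 6.02 ± 1.07 (SE; edgeR adjusted p = 5.84e-05) and lamellae fell by 5.37 ± 1.46 (edgeR adjusted p = 0.00423). Without the 2 libraries lamellae held 2 reads and P2 was 76.1-fold higher (exact Poisson 95% interval 21.1 to 628). Gene model 447462 was at 0.249, 0.162 and 0.0634 CPM in lamellae, 289, 501 and 220 in cap, and 4.06, 6.21, 12.1 and 22.0 in P2. Cap rose by 4.93 ± 0.64 (SE; edgeR adjusted p = 1.16e-06) and lamellae fell by 6.10 ± 0.84 (edgeR adjusted p = 3.08e-06). The lamellae and cap levels differed by -11.02 ± 0.98 (edgeR adjusted p = 5.82e-09). Leaving out the 2 libraries gave log2 differences of 5.16 for cap and -6.60 for lamellae from P2, and -11.76 between them. The mature cap with lamellae held 93.0 to 233 CPM and the young stipe 1.33 to 5.24, so outside the young cap its level was high in the mature tissue that includes the cap.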

How the data were processed

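Reads of 29 polyadenylated RNA libraries were deposited as whole-number total and unique counts on 14242 gene models, per the file headers, with model lengths in bases (unit other) and TPM values by the authors that were not tested. The library kit does not mark strand, and reads of a gene and an antisense neighbour could not be separated. Between 99.7% and 99.9% of a library's reads were unique. The mapper's version is not given in the sources used here. A table of log2 RPKM for 12003 gene models was also deposited. The submitters' processing notes name limma 3.18.13, edgeR 3.4.2 and R 3.0.2. Groups and replicate numbers came from sample titles. Of the identifiers, 0 matched a reference table of 13657 genes, so no names or sequences are given.

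Total counts were fitted with edgeR 4.0.16 in R 4.3.3 (filterByExpr, TMM, quasi-likelihood F test, a coefficient per group), and p-values were Benjamini-Hochberg adjusted over all gene models tested. The fit was made to 29 libraries and repeated with 27. SE is the size of the log2 change divided by the square root of F, and is approximate at few reads. Log2 CPM used a prior count of 2. Alternatives were DESeq2 1.42.0, limma 3.58.1 on log2(RPKM + 1) and log2(RPKM + 0.1), other scaling, filters, thresholds, blocks and left-out libraries. Tests were checked on simulated counts with few changed gene models, equal means in all groups otherwise and no library standing apart. That check does not cover the scaling or the 2 libraries. Library size alone for levels in other groups, for distances from P2 and for the classes without the 2 libraries was tried after the data were seen. The 2 libraries, the members and the lists were chosen with earlier results of these data known.

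Named gene models averaged 10 RPKM or more in whichever tissue was the higher. Except for those resting on 1 library, they had the same call in both fits and ranges of lamellae and cap that did not overlap. In each direction the top 2 were taken by the smaller change of the 2 fits, by the loss of change without the 2 libraries, by the departure of 1 tissue with the other within 2-fold of P2, and by the smaller of 2 opposite departures.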

Additional observations from a re-analysis of the deposited data

Results flagged for a closer look

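Among the 20 named gene models, 3 had 1 P2 library far from the other 3, in each case replicate 3 as the highest. Its gap to the nearest library was 0.897 of the range of P2 CPM for 465894, 0.926 for 361222 and 0.871 for 464921. For independent and normally distributed values, chance alone would set a library apart in this way in about 1 of 20 groups. CPM need not be normal and all 3 cases are the same library, so their number cannot be set against that rate.

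In the 4 gene models named because lamellae and cap had left the P2 level on opposite sides in both fits, a difference between the departures follows from that choice and is given as a description. Lamellae minus cap was 5.26 on the log2 scale for 470679, 5.19 for 464751, -11.4 for 463900 and -11.0 for 447462.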

How the results depend on the processing

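Calls between lamellae and cap numbered 5229 (2841 higher and 2388 lower in lamellae) and ran from 4668 to 5669 when each lamellae or cap library was left out, with 2642 to 2845 higher and 2026 to 2935 lower. The excess of higher over lower calls, 453, ran from -201 without lamellae replicate 1 to 616 without cap replicate 3, and was -7 in a fit to the 6 libraries alone. That fit called 3479 (1736 higher). Library size alone gave 4616 higher and 1450 lower calls. A 4-fold threshold left 2758 (1505 and 1253). DESeq2 called 5270 and limma 4368 and 5015. Without lamellae replicate 1 and cap replicate 3, library size alone gave 4328 higher and 1500 lower, a 4-fold threshold 2653 (1289 and 1364, an excess of -75), and a filter of at least 10 CPM in 3 libraries an excess of -22. The excess of cap alone over lamellae alone, 704, was 1666 with library size alone, 117 without both libraries, 6 at 4-fold, and -35 to 935 with 1 library left out, the lowest without cap replicate 3. At 4-fold, 878 were in lamellae alone, 884 in cap alone, 127 in opposite directions and 151 in the same direction. The last class held 334 in a fit to the 10 libraries and 817 with no fold threshold. The causes of these shifts were not tested. Same-numbered lamellae and cap libraries deviated from their group means with correlations of -0.448, 0.341 and -0.466. With 1 library standing apart in each group, these deviations mostly follow it, so they cannot show whether the numbers pair the libraries. A replicate block left 5118 calls in the fit to all libraries, 5083 without the 2, and 1640 (723 higher and 917 lower, an excess of -194) in the fit to the 6 alone. Of 411 values for named gene models under alternatives, 400 remained on their side of the threshold, 11 fell short of it and none reversed, and all 11 concerned the 4 gene models that rest on 1 library. This outcome largely follows from the choice of named gene models, by calls in both fits or by loss of change without the 2 libraries. DESeq2 gave no adjusted p for 107 gene models. Depth limits gene models with few reads, where the intervals cover counting error only.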
